A study of Mus musculus with 6 samples.

Results

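Gene-desert peaks are the sites of anti-Flag enrichment whose summit lay outside every protein-coding gene body and over 100 kb from the nearest end of such a gene. They were picked from the distinct peak intervals of 3 chromatin immunoprecipitation sequencing (ChIP-seq) libraries on chromosomes 1 to 19 of mouse build mm10, by position alone. Of 31709 such intervals, 5673 were gene-desert peaks, with 1857, 1006 and 2810 in replicates 1, 3 and 4. Of these, 50 fell in a pair of short pile-up blocks, chr9:3.00-3.04 Mb and chr2:98.66-98.67 Mb, which are described apart. The other 5623 (1843, 994 and 2786) are the peaks meant below.

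The mice had been injected intraperitoneally with AAV2-Otud3-Flag, an adeno-associated virus of serotype 2 that carries Flag-tagged Otud3, and epididymal fat was taken in week 4 after injection. OTUD3 is a deubiquitinase, an enzyme that takes ubiquitin off proteins. All 3 libraries were precipitated with an antibody against the Flag tag, the matched input DNA libraries 1, 3 and 4 were not analysed here, and every library came from virus-injected mice, so there is no group without the tagged protein. The labels call the samples adipocytes, whereas the protocol describes whole fat tissue, which also holds vascular, stromal and immune cells; peak lists carry no expression values with which to check the cell type. Strain, age, sex, the promoter driving the transgene and whether each library is a separate animal are not given in the sources used here, so the spread between libraries may be technical.

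Gene deserts are long stretches of chromosome without protein-coding genes. Many flank genes for developmental regulators or neuronal adhesion proteins and can hold distal enhancers of those genes, while others are repeat-rich and silent in most tissues. Long noncoding RNA (lncRNA) genes, pseudogenes, microRNA clusters and the segmented antigen receptor loci also lie in such stretches when protein-coding genes alone are counted. A distal peak in a desert can be a regulatory element acting over distance, and in weak data it can also be background. These kinds of site were not told apart here.

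The sequence of a peak can be shown where a RefSeq microRNA hairpin or lncRNA promoter window (250 bases before to 50 after the start, build GRCm38.p6) overlaps it. Overlaps of this kind were found for 2 hairpins and 9 promoter windows. Both hairpins and the 4 windows with most of their bases inside a peak are printed, 5′ to 3′ on the strand of the RNA. The windows were chosen for this overlap, and peaks inside the bodies of noncoding genes are described further below. Capitals mark the bases inside the peak.

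Mir380 hairpin, chr12:109711803-109711863, plus strand: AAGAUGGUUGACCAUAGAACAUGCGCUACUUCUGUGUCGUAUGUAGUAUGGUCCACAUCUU
Mir8117 hairpin, chr5:50252762-50252868, plus strand: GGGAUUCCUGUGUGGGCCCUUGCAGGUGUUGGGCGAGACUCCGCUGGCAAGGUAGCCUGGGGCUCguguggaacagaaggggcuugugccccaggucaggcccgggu
Gm31624 promoter, chr12:21600871-21601170, plus strand: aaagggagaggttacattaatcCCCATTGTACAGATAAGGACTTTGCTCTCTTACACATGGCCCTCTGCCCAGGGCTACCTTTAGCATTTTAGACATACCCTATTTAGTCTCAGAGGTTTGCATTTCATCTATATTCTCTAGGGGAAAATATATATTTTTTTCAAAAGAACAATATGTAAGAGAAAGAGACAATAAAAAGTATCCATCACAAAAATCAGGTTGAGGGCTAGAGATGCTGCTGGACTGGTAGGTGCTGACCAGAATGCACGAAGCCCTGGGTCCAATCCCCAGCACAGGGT
Pldi promoter, chr10:60938083-60938382, minus strand: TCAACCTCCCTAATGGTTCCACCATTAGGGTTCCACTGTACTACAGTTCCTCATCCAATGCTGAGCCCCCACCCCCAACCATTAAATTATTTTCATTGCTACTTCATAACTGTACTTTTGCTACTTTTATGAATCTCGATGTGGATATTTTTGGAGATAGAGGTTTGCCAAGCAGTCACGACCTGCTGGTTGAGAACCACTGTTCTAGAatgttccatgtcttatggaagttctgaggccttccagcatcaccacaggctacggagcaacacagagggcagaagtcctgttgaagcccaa
4930556A17Rik promoter, chr3:37827968-37828267, plus strand: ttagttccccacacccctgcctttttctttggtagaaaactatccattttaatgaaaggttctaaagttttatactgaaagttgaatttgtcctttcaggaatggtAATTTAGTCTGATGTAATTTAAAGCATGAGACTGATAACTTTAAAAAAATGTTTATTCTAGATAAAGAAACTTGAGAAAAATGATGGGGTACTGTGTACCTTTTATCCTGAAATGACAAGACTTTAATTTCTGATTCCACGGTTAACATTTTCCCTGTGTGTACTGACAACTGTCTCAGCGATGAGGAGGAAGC
Gm38542 promoter, chr3:78936257-78936556, minus strand: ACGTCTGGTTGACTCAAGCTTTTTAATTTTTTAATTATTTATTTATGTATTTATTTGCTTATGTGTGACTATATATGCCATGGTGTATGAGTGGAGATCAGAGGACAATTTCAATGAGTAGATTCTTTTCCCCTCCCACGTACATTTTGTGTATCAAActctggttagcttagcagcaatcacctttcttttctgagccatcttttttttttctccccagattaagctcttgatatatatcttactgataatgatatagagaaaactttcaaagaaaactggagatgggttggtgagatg

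All 61 bases of the Mir380 hairpin lay inside a replicate 3 peak of fold 3.00 and 7 fragments. Fold is the authors' enrichment over local background, and fragments are the DNA pieces counted at the summit, recovered from the caller's fold and p. Mir380 belongs to the imprinted microRNA cluster of the Dlk1-Dio3 domain, and the nearest protein-coding gene was Rtl1, 107 kb away. The Mir8117 hairpin had 65 of 107 bases in a replicate 4 peak of fold 2.99 and 5 fragments. A replicate 1 peak of fold 3.55 lay 1.015 kb from the same hairpin, without overlap. Of the promoters printed, 4930556A17Rik had the peak of highest fold, 4.27 on 5 fragments in replicate 1, and its annotated start lay inside the peak. The Gm31624 start also lay inside its peak, which had fold 2.49 and 4 fragments in replicate 4. At Pldi, a replicate 3 peak of fold 2.96 covered the bases upstream of the start and not the start itself. The Gm38542 window was covered in the same way by a replicate 4 peak of fold 2.83. The Gm38864 window, of which 25 of 300 bases lay in a replicate 3 peak, is not printed; that peak had fold 4.20 on 9 fragments. No hairpin or promoter window was overlapped by peaks of more than 1 list.

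The 9 promoter windows were AT-rich, with a median GC content of 41.3% against 45% in 2017 lncRNA windows of the deserts and 52.7% in all 32851 windows. Motif letters were searched on both strands and set against all windows and the desert lncRNA windows, in that order. The AP-1 letters TGANTCA were in 1 window (Gm38542) of 9, against 7.81% and 10.4%. The nuclear receptor letters AGGTCA were in 1 of 9 against 16.3% and 19.7%. The CCAAT box letters CCAAT were in 5 of 9 against 37.4% and 39.6%. The E-box letters CACGTG (7.15% and 4.76%) and the early B-cell factor palindrome (0.904% and 0.694%) were in 0 of 9. With 9 windows these shares describe the windows shown and no more.

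Peaks were thinner on the ground in deserts than elsewhere in all 3 lists. The deserts spanned 656 Mb of 2402 Mb surveyed, or 27.3% of the length, taken from the first to the last peak or gene of each chromosome with assembly gaps not removed. They held 15.7% of the peaks in replicate 1 (95% exact binomial interval 15.0% to 16.3%), 15.3% in replicate 3 (14.4% to 16.2%) and 20.8% in replicate 4 (20.1% to 21.5%). The mean was 17.3% ± 3.07 (SD, n = 3), and the intervals cover counting error only. Replicates 1 and 3 had overlapping intervals, and replicate 4 lay above both. The share of peaks was 0.573, 0.561 and 0.761 of the share of length. In peaks per Mb, deserts had 2.81, 1.52 and 4.25, and the rest of the chromosomes 5.69, 3.15 and 6.08.

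The thinning was graded with distance. Relative to the average density of each list, gene bodies had 1.26, 1.33 and 1.20 times as many peaks per Mb in replicates 1, 3 and 4. Within 10 kb outside genes the ratios were 1.36, 1.18 and 1.03, so replicate 1 was densest there. From 10 to 50 kb they were 0.957, 0.897 and 0.952. At 50 to 100 kb, just short of the desert limit, the ratios were 0.745, 0.786 and 0.860, and at 100 to 200 kb they were 0.688, 0.707 and 0.825. At 500 to 1000 kb they had come down to 0.465, 0.450 and 0.710. Beyond 1000 kb, where 150, 86 and 230 peaks remained, they were 0.466, 0.484 and 0.628. The limit of 100 kb therefore cuts a continuous slope, and replicate 4 had the shallowest slope inside the deserts. The peaks nearest the limit had folds of 2.44 to 3.26, and the lowest of these stood at percentile 0.615 of the replicate 1 folds. Just inside were a replicate 1 peak 100.066 kb from A1bg (fold 3.12), a replicate 3 peak 100.009 kb from Cdk6 (2.99) and a replicate 4 peak 100.009 kb from Tyw3 (2.67). Just outside were peaks 99.633 kb from Gas1 (2.44), 99.791 kb from Rbm43 (3.13) and 99.983 kb from Tbc1d1 (3.26).

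**Figure D1:**
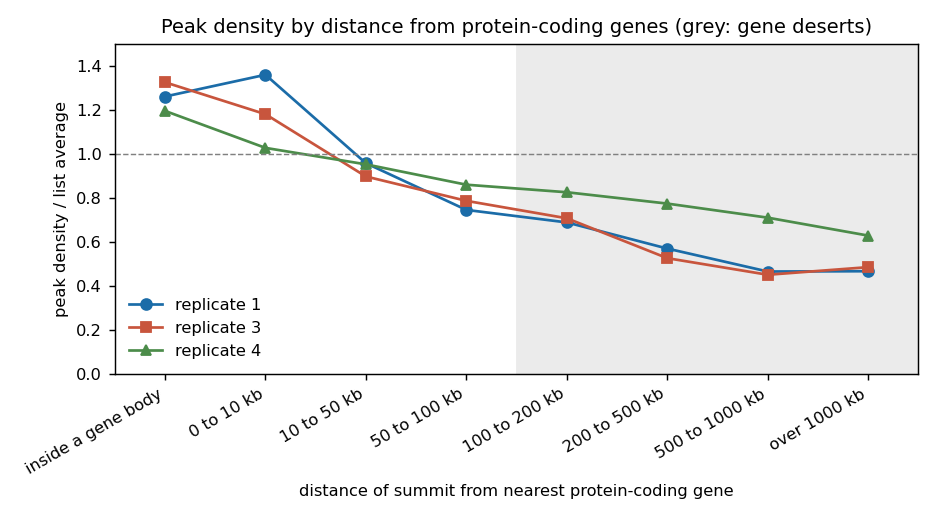
Peak density in each distance zone divided by the average density of the list (vertical axis, no unit) against distance of the summit from the nearest protein-coding gene (horizontal axis, kb), with 1 line for each of replicates 1, 3 and 4 and the desert zones shaded. Each line starts above 1 in gene bodies and ends at 0.466, 0.484 and 0.628 beyond 1000 kb. The replicate 1 line is highest at 0 to 10 kb, at 1.36.

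Desert peaks and the other peaks had close medians of fold, width and fragments. The desert median fold was 3.20, 3.02 and 3.04, against 3.20, 3.00 and 2.99 for the rest, a mean difference of 0.0237 ± 0.0256 (SD, n = 3; exact permutation p = 0.5, two-sided, Benjamini-Hochberg adjusted p = 0.75 over 3 tests). Their median width was 245, 253 and 235 bp against 245, 269 and 243 bp, a difference of -8 ± 8 bp (SD, n = 3; exact permutation p = 0.5, adjusted p = 0.75). The median peak rested on 4, 6 and 5 fragments both in deserts and elsewhere (exact permutation p = 1, n = 3). With 3 libraries the smallest two-sided p such a test can give is 0.25, so none could have passed 0.05. Most desert peaks were weak by the caller's own measure: 85.3%, 92.3% and 93.5% of them had a q, the caller's false discovery rate, above 0.5, close to the 83.8%, 91.3% and 93.5% of the other peaks.

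Local background was lower under desert peaks than under the others in all 3 lists. Its median under desert peaks was 0.428, 1.28 and 0.889 fragments, against 0.467, 1.34 and 0.956 elsewhere. The lowest background that a list allows was 0.407, 1.17 and 0.839 fragments. A background within 2% of that floor stood under 45.6%, 31.2% and 41.7% of desert peaks and under 36.7%, 22.3% and 29.8% of the others. The share was higher in deserts in all 3 lists. At that floor a few fragments give a moderate fold. In replicate 4 the median fold moved from 2.99 at 100 to 200 kb to 3.21 beyond 1000 kb while the median background went from 0.939 to 0.839. In replicate 1 the median fold over the same zones went from 3.20 to 3.14 and in replicate 3 from 3.00 to 2.99. The part of the background in the density gradient was not tested.

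Desert peaks that passed a q below 0.05 were few: 2, 3 and 12 in replicates 1, 3 and 4, or 0.109%, 0.302% and 0.431% of each list's desert peaks. Over all peaks outside the blocks the same rule called 0.229%, 0.200% and 0.254%. The desert share was thus below the background in replicate 1 and above it in replicates 3 and 4, and over the lists together it was 0.302% against 0.234%. Replicate 4 supplied 12 of the 17, and without it 5 were left. Some of the 12 were neighbours, on chromosome 14 and in the pseudogene Gm20778. With counts this small the order of the shares is not firm. At a q of at most 1e-05 there were 0, 1 and 3, or 0%, 0.101% and 0.108% of the desert peaks, against 0.00849%, 0.0308% and 0.0373% of all peaks outside the blocks. By fragments at the summit the 17 fell into 2 sorts, 6 peaks of 66 to 377 fragments on high local coverage and 11 peaks of 7 to 13 fragments with folds of 4.92 to 6.44.

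The low-coverage sort of 11 peaks included the highest desert fold of each list. Among the other peaks the highest folds were 6.39, 6.28 and 6.69 in replicates 1, 3 and 4. The highest fold of any desert peak was 6.44, at chr17:52257220-52257533 in replicate 3, between Satb1, a chromatin organiser, and the potassium channel gene Kcnh8 (13 fragments, q = 4.90e-05). The next was 6.24, at chr8:20061924-20062205 in replicate 4 (11 fragments, q = 0.000142). A neighbour at chr8:20056314-20056562 in the same list had fold 5.06 (q = 0.0116). Both lay in the pseudogene Gm20778. Reads of a pseudogene can come from a near-identical copy, and read placement there was not tested. In replicate 1 the highest desert fold was 5.31, at chr18:26079272-26079667, in the lncRNA gene Gm33228 (7 fragments, q = 0.0364). It lay 325 kb from Celf4, which encodes an RNA-binding protein. In replicate 3, chr12:7707444-7707833 had fold 5.06 and 10 fragments (q = 0.0265). It lay in the lncRNA gene Gm32828, 270.0 kb from Apob, the structural protein of low-density lipoprotein.

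The other peaks of this sort came from replicate 4. A peak at chr1:190302125-190302427 lay 131 kb from Prox1, the master regulator of lymphatic endothelial identity (fold 4.92, 13 fragments, q = 0.00316). Another at chr13:82794800-82795046 lay 709 kb from Mef2c, a muscle and neuronal transcription factor (fold 5.44, 9 fragments, q = 0.00598). At chr2:46326868-46327163, 1210 kb from Zeb2, a repressor of epithelial genes, fold was 5.39 with 9 fragments (q = 0.00672). At chr10:44950488-44950866, 117 kb from Prep and 422 kb from Prdm1, it was 4.94 with 9 fragments (q = 0.0280). A peak 207 kb from the neurotrophin gene Bdnf and 125 kb from Kif18a, at chr2:109467072-109467382, had fold 5.44 (9 fragments), as did one between the vomeronasal receptor genes Vmn2r98 and Vmn2r99 at chr17:19218347-19218613. None of these 11 sites overlapped a desert peak of another list, so each was seen in 1 library only. Just short of the q limit, the next desert folds of replicate 1 were 5.05 and 5.02. The first was at chr1:116948925-116949244, near Cntnap5a (q = 0.0853). The second was at chr6:127325062-127325317, 122 kb from the nearer of Ccnd2 and Parp11 (q = 0.0763).

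The high-coverage sort had 6 peaks with q below 0.05. At chr17:4626108-4626559, in the lncRNA gene Gm34259 and 368 kb from Arid1b, a chromatin remodelling subunit, replicate 3 had 66 fragments at fold 5.66 on a background of 10.8 (q = 6.68e-23). Replicate 4 had 126 fragments there at fold 2.01 on a background of 62.1 (q = 2.58e-07), and replicate 1 had no peak. The summits were 10 bp apart. At chr14:19415734-19418954, between Gm41099 and Gm2244, replicate 4 had a row of 3 peaks with 237, 255 and 377 fragments and folds of 1.45, 1.61 and 1.73. At chr3:5860396-5860749, 282 kb from Pex2, replicate 1 had 70 fragments at fold 2.28 on a background of 30.2 (q = 0.000319). All 6 except the replicate 3 peak had folds below their list's median.

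Desert peaks of 20 or more fragments numbered 3, 3 and 8, or 14 in all, and 8 of them did not pass q below 0.05. They made up 0.163%, 0.302% and 0.287% of the desert peaks, against 0.0504%, 0.0909% and 0.0943% of the other peaks, a higher share in each list. This limit was chosen after the values were seen. Neighbouring peaks of the same stretch were counted singly, so the shares rest on fewer separate sites than peaks. The chr14 stretch between Gm41099 and Gm2244 also held a replicate 4 peak of 113 fragments and a replicate 3 peak of 240. A pair in replicate 1, chr17:39846482-39847195 and chr17:39847532-39848370, lay in Rn18s-rs5, an annotated pseudogene related to 18S ribosomal RNA, with 80 and 74 fragments and folds of 1.56 and 1.43. In replicate 4, chr12:3109805-3110151 at the chromosome's start had 246 fragments at fold 1.36 and chr18:3004825-3005084 had 45 at 1.77. Ribosomal RNA genes and satellite repeats next to centromeres occur in many copies, and reads from them collect on the few copies present in an assembly. Repeat content of these sites was not analysed here.

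**Figure D2:**
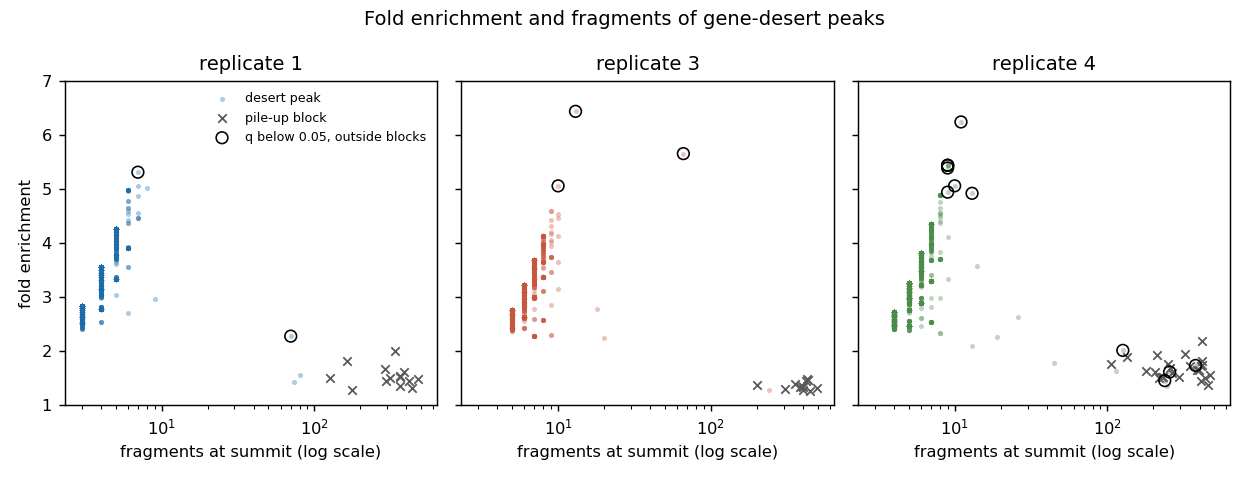
Fold enrichment (vertical axis) against fragments at the summit (horizontal axis, log scale) for every gene-desert peak of replicates 1, 3 and 4, 1 panel each, with pile-up block peaks as crosses and peaks with q below 0.05 outside the blocks circled. Nearly all peaks stand in columns of 3 to 10 fragments. The circled ones either have 7 to 13 fragments and some of the highest folds among their list's desert peaks, or lie far to the right. Those to the right have folds of 1.45 to 2.28, except for 1 replicate 3 peak at 66 fragments and fold 5.66.

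The pile-up blocks themselves had the features of the high-coverage sort in stronger form. In the block at the start of chromosome 9, replicates 1, 3 and 4 had 12, 10 and 20 peaks with a median fold of 1.51, 1.36 and 1.70. Their median summit held 325, 409 and 307 fragments, on a background 477, 225 and 200 times the median background of the desert peaks. The chromosome 2 block had 2, 2 and 4 peaks with median folds of 1.38, 1.34 and 1.48. Of the block peaks, 10, 6 and 20 on chromosome 9 and 2, 2 and 4 on chromosome 2 had a q below 0.05, so 44 of the 61 gene-desert peaks below that q lay in these blocks, which together span 0.05 Mb.

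Recurrence between lists was rare. Of the desert peaks, 8, 8 and 10 in replicates 1, 3 and 4 overlapped a desert peak of another list by at least 1 bp, or 0.434%, 0.805% and 0.359%. Over all peaks outside the blocks, 0.739%, 1.06% and 0.627% overlapped another list, so the desert share was the lower one in each library. Together it was 0.462% against 0.758%. Merging the peaks gave 5610 desert regions, of which 13 (0.232%) held 2 lists, against 0.380% of 31539 regions over all positions, and 0 held all 3. Replicates 1 and 3 shared 3 regions, 1 and 4 shared 5, and 3 and 4 shared 5. Near misses followed the same order. A desert peak of another list lay within 1 kb of 1.09%, 1.31% and 0.826% of desert peaks. Of the other peaks, 2.53%, 3.44% and 2.13% had another list's non-desert peak within 1 kb. Peaks were sparser in deserts, and the part of density in these shares was not tested.

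The shared region of most interest for fat biology lay at chr2:167817389-167817902, in the lncRNA gene Gm32600, 127 kb from Cebpb and 113 kb from Ptpn1. Cebpb encodes an early transcription factor of adipocyte differentiation, and Ptpn1 a phosphatase that acts on the insulin receptor. Fold there was 3.79 on 5 fragments in replicate 1 and 2.84 on 6 fragments in replicate 3, with summits 296 bp apart and q of 0.408 and 0.950. Both peaks were therefore weak, and replicate 4 had none. The region with the highest mean within-list rank of fold was chr17:59340775-59341235, between Nudt12 and Efna5, with 3.55 in replicate 3 and 3.21 in replicate 4. It was followed by chr5:46052726-46053062, between Lcorl and the axon guidance gene Slit2, with 3.36 and 3.21 in the same libraries.

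The other shared regions lay next to genes of various kinds. At chr16:42512449-42512917, between the growth cone gene Gap43 and Zbtb20, fold was 4.27 in replicate 1 and 2.47 in replicate 4. At chr7:95014136-95014656, in the lncRNA gene Gm32647 upstream of the adhesion gene Tenm4, it was 3.55 in replicate 3 and 2.72 in replicate 4. At chr6:49668496-49668940, 154 kb from the neuropeptide gene Npy, it was 3.20 in replicate 1 and 2.48 in replicate 3, and the summits were 19 bp apart. The regions near Lrp1b (chr2:40194979-40195350; 3.55 and 2.76), Sgcz (chr8:37367631-37367943; 2.84 and 2.99) and Nr5a2 (chr1:137114420-137115164; 2.62 and 3.61) rested on 3 to 6 fragments per list. The Poteg/Unc5d and Crh/Cp regions had folds of 2.47 to 2.72 and the chr14 region 1.28 and 1.45. Of the 13, only the Arid1b region had q below 0.05 in both lists.

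**Figure D3:**
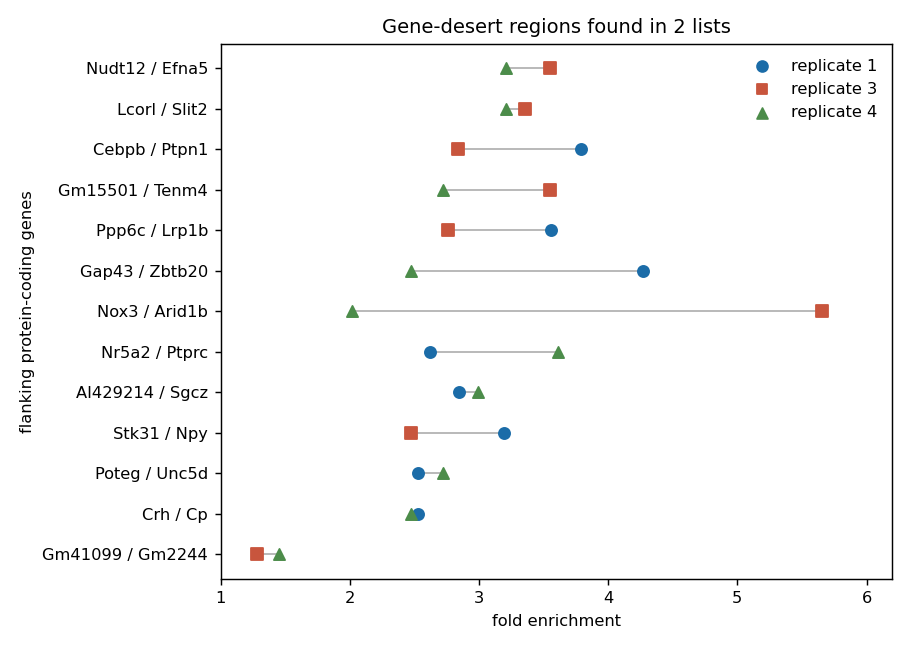
Fold enrichment (horizontal axis) of the 13 gene-desert regions with peaks in 2 lists, each row named by its flanking protein-coding genes, with a marker for each replicate and a line joining the pair. Folds run from 1.28 and 1.45 at Gm41099/Gm2244 to 5.66 and 2.01 at Nox3/Arid1b, and most lie between 2.5 and 4.3.

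The deserts comprised 1389 gene-free intervals. Of these, 377 had peaks in all 3 lists, 342 in 2, 308 in 1 and 362 in none. How many lists hit a desert followed its length: all 185 deserts with at least 1 Mb beyond the 100 kb margins had peaks in 2 or 3 lists (29 and 156), whereas 282 of the 445 below 0.1 Mb had none. Density ran the other way, at 12.2 peaks per Mb below 0.1 Mb, 9.43 from 0.1 to 1 Mb and 7.63 at 1 Mb or more, with 8.57 over all. By chromosome the density ranged from 7.89 per Mb on chromosome 3 to 9.52 on chromosome 2.

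The longest desert, 4.54 Mb between the protocadherin genes Pcdh20 and Pcdh9 on chromosome 14, had 7, 3 and 20 peaks in replicates 1, 3 and 4. In it lay the most remote peaks of replicates 1 and 3, at chr14:90746604-90746848 and chr14:90751732-90752083, 2267 and 2262 kb from any protein-coding gene. They stood about 5 kb apart, with folds of 3.55 and 3.68 on 4 and 7 fragments. The most remote peak of replicate 4, 2232 kb from a gene at chr18:28033067-28033393 (fold 2.62), lay in the second longest desert, between Celf4 and Pik3c3, which had 9, 4 and 14 peaks. The deserts between Olfm4 and Pcdh17 (11, 6 and 17 peaks), Cntnap5b and Cdh20 (9, 3 and 15) and Tenm3 and Aga (5, 2 and 10) were next in length. Their densities of 4.49 to 8.06 peaks per Mb were below the average of 8.57, and replicate 4 had the most peaks in each.

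Among deserts of at least 1 Mb the densest lay between Id2 and Rnf144a on chromosome 12, with 6, 7 and 9 peaks or 21.8 per Mb. Id2 encodes an inhibitor of basic helix-loop-helix factors with a part in adipocyte differentiation. Folds there ran from 2.79 to 4.98 in replicate 1, 2.62 to 3.47 in replicate 3 and 2.47 to 4.09 in replicate 4, and the lowest q was 0.0977. The desert between Klf4, a Krüppel-like transcription factor, and Actl7b had 6, 4 and 8 peaks (17.9 per Mb). Those of Dhx35/Gm826 (11, 4 and 6), Wac/Fzd8 (5, 3 and 9) and Slc8a1/Pkdcc (7, 2 and 11) followed at 15.7 to 16.8 per Mb. List by list, Dhx35/Gm826 had 8.78, 3.19 and 4.79 peaks per Mb and Slc8a1/Pkdcc 5.48, 1.57 and 8.61, against desert averages of 2.81, 1.52 and 4.25. The first was thus close to the average in replicate 4 and the second in replicate 3. Id2/Rnf144a, at 5.94, 6.93 and 8.90, stood above the average in each list. So did Klf4/Actl7b, at 5.96, 3.97 and 7.94, and Wac/Fzd8, at 4.61, 2.77 and 8.30. The 5 deserts were picked by their density over these same lists, so densities above the average follow in part from the choice. No peak of the 5 deserts had q below 0.05, a share that the low rate of 0.302% over all desert peaks leaves uninformative.

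**Figure D4:**
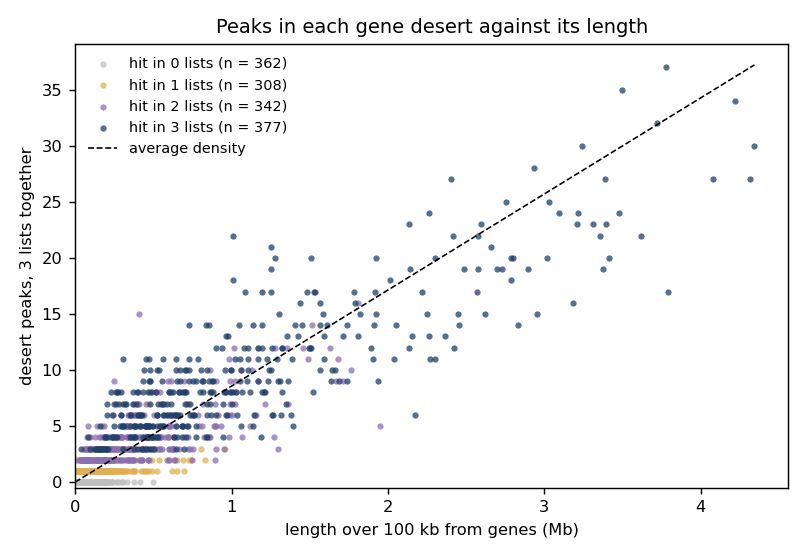
Gene-desert peaks of all 3 lists together (vertical axis, count) against the length of each desert beyond the 100 kb margins (horizontal axis, Mb), 1 point per desert, coloured by how many lists hit it, with the average of 8.57 peaks per Mb as a dashed line. Long deserts were hit in 2 or 3 lists, and the points scatter on both sides of the line.

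Genes flanking the deserts were described with 5 lists of 318 genes in all, each desert position being given to its nearest protein-coding gene. The neuronal adhesion and guidance genes held the most peaks, 558, but over 79.0 Mb, which is 7.06 per Mb and below the 8.57 of all deserts. Neurotransmitter receptors and ion channels had 79 peaks (5.37 per Mb). Developmental transcription factors had 249 (8.86 per Mb), led by Zeb2 with 2, 4 and 13 peaks and Gata3 with 7, 1 and 8. Adipocyte factors and their coactivators had 51 peaks at 12.4 per Mb, from 13 of the 44 genes, of which 18 had any desert nearest to them. Adipose metabolism and signalling genes had 44 peaks at 12.5 per Mb, from 13 of 55, of which 17 had any. Among genes with desert, the neuronal adhesion, receptor and channel, and developmental lists had peaks at 57 of 66, 27 of 40 and 60 of 74. Both adipose lists were above the average in every library: 4.13, 2.92 and 5.35 per Mb and 3.13, 3.99 and 5.41 per Mb, against 2.81, 1.52 and 4.25. They rest on 4.11 and 3.51 Mb of desert. Deserts of under 1 Mb were denser in general, and the part of desert length in this order was not tested.

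Bmp4 and Klf4 had the most desert peaks of the genes in the adipose lists, 10 each. Bmp4, a growth factor that commits stem cells to the adipocyte lineage, had 3, 3 and 4 peaks in replicates 1, 3 and 4. Folds were 3.36, 3.88 and 3.45 in replicate 1, 3.51, 3.13 and 3.10 in replicate 3, and 2.45, 2.41, 2.72 and 4.35 in replicate 4. The replicate 1 peak at chr14:46229056-46229455 and the replicate 3 peak at chr14:46228043-46228346, 154 and 155 kb from the gene, came closest to each other but did not overlap. Klf4 as nearest gene had 4, 3 and 3 peaks with folds of 2.51 to 4.02, and Pik3r1, the regulatory subunit of phosphoinositide 3-kinase in insulin signalling, had 4, 4 and 1 with folds of 2.48 to 3.64. Lowest q was 0.262 at Bmp4 and 0.434 at Klf4.

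Ppargc1a, the PGC-1α coactivator of thermogenic and mitochondrial genes, had 4, 2 and 1 desert peaks. Replicate 1 had folds of 2.84, 3.55, 4.14 and 3.55, replicate 3 had 4.14 and 3.10, and replicate 4 had 3.26. The peaks at chr5:51313306-51313550 (replicate 1) and chr5:51315817-51316067 (replicate 3) lay 141 and 138 kb from the gene, about 2.5 kb apart. Foxo1, a transcription factor restrained by insulin, had 1 peak in each list (2.53, 3.00 and 3.95), and Tgfb2, a growth factor gene, had 1, 1 and 2 (4.26; 3.58; 3.26 and 2.72). The replicate 3 and 4 peaks at Tgfb2 stood 162 and 163 kb from it, within 1 kb of each other. Zfp521, a repressor of adipogenesis, had 0, 2 and 4 peaks (2.62 to 3.81), and Nr4a2, an orphan nuclear receptor gene, had 1, 0 and 6 (2.47 to 3.26). Of the 95 peaks of the adipose lists, 0 had q below 0.05, which at a rate of 0.302% over all desert peaks says nothing about these genes.

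Noncoding genes covered 12.8% of the desert length and held 15.5%, 16.1% and 14.2% of the peaks in replicates 1, 3 and 4. In all, 841 of 5623 peaks lay inside a noncoding gene, 739 of them in a lncRNA gene and 58 in a pseudogene, while 1376 were over 100 kb from every annotated gene. Of 586 noncoding genes hit, 19 were hit in all 3 lists. These were long, at a median of 245 kb where the median lncRNA gene of the table measured 8.43 kb, and a longer gene collects more peaks.

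The noncoding loci with the most peaks by count were antigen receptor loci, which are built of V, D and J segments rather than annotated as protein-coding genes and so pass as desert by the rule. Igk, the kappa light chain locus of B cells, had 10, 3 and 12 peaks over 3171 kb. Igh, the heavy chain locus, had 2, 1 and 8, and Tcra, the T cell receptor alpha locus, 6, 1 and 5. Over their whole length, any stretch within 100 kb of a protein-coding gene included, this was 7.88, 4.00 and 6.68 peaks per Mb in Igk, Igh and Tcra, all below the desert average of 8.57. Together, 49 peaks (0.871%) lay in loci of this annotation class. Folds in Igk ran from 2.53 to 4.27 in replicate 1, 3.22 to 4.60 in replicate 3 and 2.62 to 3.81 in replicate 4. The 3 peaks of replicate 3 there had folds of 4.60, 3.75 and 3.22, with the first 2 above the upper quartile of that list's desert peaks, 3.37. In replicates 1 and 4 that quartile was 3.55 and 3.30, and most Igk peaks lay below it.

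Among lncRNA genes, Gm32647 had 2, 2 and 4 peaks along its 1284 kb, and one of its pairs is the shared region upstream of Tenm4. Morrbid, a lncRNA that controls the survival gene Bcl2l11 in short-lived myeloid cells, had folds of 4.20, 2.76 and 3.50 in replicate 1, 2.62 in replicate 3 and 2.97 in replicate 4. Pvt1, the lncRNA next to Myc, had 2.84 in replicate 1, 3.51 in replicate 3, and 2.56 and 2.67 in replicate 4. None of the Morrbid or Pvt1 peaks overlapped another list, and their lowest q was 0.342.

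MicroRNA hairpins lay within 10 kb of 15 of the 5623 desert peaks (4, 5 and 6 by list). No such count is given here for the other peaks, so 15 cannot be called many or few. These desert peaks had 29 hairpins near them in all, because the Mir380 peak is surrounded by its cluster. The strongest was a replicate 1 peak of fold 4.98, 1.118 kb from Mir6342 (6 fragments, q = 0.0977). A replicate 4 peak of fold 4.27 stood 1.495 kb from Mirlet7c-1 and 2.245 kb from Mir99a, a pair of hairpins from a common host transcript (7 fragments, q = 0.262). Mir378d, a relative of the microRNA hosted by Ppargc1b, had a replicate 4 peak of fold 2.47 at 2.527 kb. Near Irs1, an adaptor of the insulin receptor, a replicate 3 peak of fold 3.05 lay 8.69 kb from Mir6344.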

How the data were processed

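ChIP-seq peak lists of 3 anti-Flag libraries (replicates 1, 3 and 4) in mm10 coordinates were used; the 3 input libraries were not analysed here. The submitters' processing notes name BWA 0.7.12, fastp 0.19.11 and MACS2 2.1.0. Lists were not pooled. The sources used here do not say whether input served as control, and name both sequencing layouts. In the deposited lists the authors give each peak a fold (ratio over local background), −log10 p and −log10 q values, and a score derived from the −log10 p.

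Intervals listed more than once were reduced to the summit of lowest p, leaving 11871, 6531 and 13496 of 11876, 6541 and 13503 peaks. Depth, for want of read totals, was recovered per peak: fold is fragments plus 1 over background plus 1 and p is a Poisson tail, and a whole number of fragments matched p within 0.001 on the log10 scale for 100% of peaks. Counting error is large at the 3 to 6 fragments of a typical peak. Distances came from 20558 protein-coding genes of a RefSeq table of GRCm38.p6, after 107 protein-coding entries with scaffold positions were left out. The table holds no exons.

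Medians per library were compared by exact sign-flip permutation over the 3 libraries (numpy 2.4.6, scipy 1.17.1), tested on simulated data. Shares, counts and flanking lists are descriptions beside the same quantity over all peaks. Peaks named were those with q below 0.05, those shared by lists, the 3 highest folds per list, the farthest and those at the limit; deserts named were the 5 longest and 5 densest of at least 1 Mb. Noncoding, high-coverage and adipose peaks beyond these, Cebpb included, were chosen after their values were seen. Members and gene lists were chosen with earlier results of these data known. Alternatives were other distance limits, all genes, stricter overlap, q or fold, blocks kept and each replicate left out.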

Additional observations from a re-analysis of the deposited data

How the results depend on the processing

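Of 63 alternative values of 7 results, 27 moved. The other 36 kept their side of the test's threshold, or stayed within 1 SD (shares) or 1.5 times (counts). Shares and counts have no direction to change, and the fragment difference was 0 throughout. The fold and width differences kept their sign. The desert share of 17.3% became 23.3% beyond 50 kb, 11.1% beyond 200 kb and 4.20% when every annotated gene counted. The differences in median fold, width and fragments passed no test under any alternative, which a design of 3 libraries could not have allowed; the fold difference ran from 0.00386 (blocks kept) to 0.0383 (every gene) and the width difference from -12 to -4 bp. The 26 overlapping peaks became 10 beyond 200 kb, 6 with every gene counted, 66 with the pile-up blocks in, 4 among peaks above their list's median fold, and 10 either at 50% reciprocal overlap or with summits within 100 bp. Leaving out 1 replicate gave 6 (without replicate 4) to 10. The 13 shared regions became 5, 3, 27, 2, 5 and 5 in the same order, and 3 (without replicate 4) to 5 with 1 replicate left out. The Cebpb/Ptpn1 and Nudt12/Efna5 regions, with summits 296 and 195 bp apart, were lost under the 100 bp rule. The 17 peaks with q below 0.05 became 8 beyond 200 kb, 1 with every gene counted, 61 with the blocks in and 4 at a q of at most 1e-05. They were 5 (without replicate 4) to 15 with 1 replicate left out, and 11 without peaks of 20 or more fragments, an alternative chosen after seeing the data. Each alternative changes by its own definition which peaks, lists or overlaps are counted, and causes beyond that were not tested. Depth limits single sites: a peak of 3 to 6 fragments cannot be placed firmly above background. No paired analysis was possible because only the anti-Flag group has peak lists here.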

Other observations

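The 5 sparsest deserts of at least 1 Mb had 2.31 to 3.36 peaks per Mb. The desert between Nrsn1 and Hdgfl1 on chromosome 13 had 2, 0 and 1 peaks in replicates 1, 3 and 4, or 2.31 per Mb, against 21.8 per Mb between Id2 and Rnf144a. Cbln2/Socs6 on chromosome 18 had 2, 0 and 3 peaks (2.57 per Mb) and Serpinb8/Cdh7 on chromosome 1 had 3, 1 and 2 (2.76 per Mb). Atxn7l3b/Trhde had 3, 0 and 1, and Nup35/Zfp804a had 1, 1 and 2. Assembly gaps and unmappable sequence in these deserts were not analysed here, so their densities are over the whole length.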
